A study of Mus musculus with 4 samples.

Results

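The members are 10 mouse genes of the TSC complex and the core of mTORC1: Tsc1, Tsc2, Tbc1d7, Rheb, Mtor, Rptor, Mlst8, Akt1s1, Deptor and Akt1. They were chosen by name, and a peak was counted for a member when the gene identifier deposited with the peak was that of the member and the peak was not marked antisense. This gave 17 of the 15511 peaks of replicate 1 and 25 of the 22570 peaks of replicate 2. In all, 7223 annotated genes of any type had such a peak in at least 1 library. Of the 10 members, 8 had a peak in replicate 1 and 8 in replicate 2. Of all protein-coding genes, 22.1% had a peak in replicate 1 and 26.8% in replicate 2. The peaks come from RNA immunoprecipitation and sequencing (RIP-seq), in which RNA bound to a protein is pulled down with an antibody, sequenced and searched for regions where reads pile up. The cells were bone-marrow-derived macrophages (BMDMs), macrophages grown in culture from mouse bone marrow.

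The series has 4 samples, 2 immunoprecipitates of IGF2BP2 and 2 inputs without antibody, and the input libraries were not analysed here. The labels give no strain, age, genotype or stimulus for any group. They name an antibody raised against IGF2BP2 among the sample characteristics but an antibody to the Flag tag in the protocol. Nothing in them says whether the replicates came from separate animals or cultures. A single condition was measured, so no comparison between conditions exists, and the values below are tags (reads counted in a peak) of each library, with 95% exact Poisson or binomial intervals that cover counting error only. The title of the series names TSC1 as a target of the protein.

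The mTORC1 kinase complex couples growth to nutrients and growth factors. The TSC complex, built of hamartin (Tsc1), tuberin (Tsc2) and TBC1D7 (Tbc1d7), switches off the small GTPase Rheb, which otherwise activates mTORC1 at the lysosome. AKT1, a kinase activated by growth factor signalling, phosphorylates tuberin and thereby relieves this brake. In macrophages the TSC and mTORC1 axis is known to shape metabolism and polarisation. IGF2BP2 binds mRNA and, as an m6A reader, recognises transcripts carrying methylated adenosines. The preferred sequence around such an adenosine has GGAC at its core.

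Peaks of the 2 libraries overlapped at 8 positions of these genes, in the mRNAs of Tsc1, Rheb, Rptor and Akt1. The coding part of each overlap is given here because these are the places where peaks were listed in both libraries. Tsc1, Rheb, Rptor and Akt1 each had further peaks in replicate 2 outside these places, so the tags of each message were not confined to them. Sequences run 5′ to 3′ on the strand of the gene, in lower case with GGAC in capitals, and were read from GENCODE transcripts on GRCm38.
Tsc1, exon 23 of 23, chr2:28686825-28687023, plus strand: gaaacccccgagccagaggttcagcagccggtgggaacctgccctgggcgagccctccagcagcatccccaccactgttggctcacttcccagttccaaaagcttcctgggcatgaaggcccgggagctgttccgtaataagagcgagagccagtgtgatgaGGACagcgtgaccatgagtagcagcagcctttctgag
Rheb, exon 6 of 8, chr5:24807605-24807652, minus strand: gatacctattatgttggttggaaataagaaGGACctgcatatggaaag
Rheb, exon 7 of 8, chr5:24806999-24807080, minus strand: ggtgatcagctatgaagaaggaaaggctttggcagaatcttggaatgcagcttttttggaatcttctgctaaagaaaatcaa
Rheb, exon 8 of 8, chr5:24803667-24803756, minus strand: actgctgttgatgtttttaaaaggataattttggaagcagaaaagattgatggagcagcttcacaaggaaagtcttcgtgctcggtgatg
Rptor, exon 1 of 34, chr11:119603819-119603971, plus strand: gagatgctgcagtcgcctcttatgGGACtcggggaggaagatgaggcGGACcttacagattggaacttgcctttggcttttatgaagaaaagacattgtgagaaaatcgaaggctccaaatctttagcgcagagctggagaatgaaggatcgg
Rptor, exon 2 of 34, chr11:119657664-119657766, plus strand: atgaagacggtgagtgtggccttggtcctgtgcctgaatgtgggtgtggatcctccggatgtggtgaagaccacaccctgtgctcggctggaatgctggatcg
Rptor, exon 3 of 34, chr11:119671278-119671349, plus strand: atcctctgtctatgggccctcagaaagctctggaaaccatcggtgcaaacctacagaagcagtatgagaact
Akt1, exon 5 of 14, chr12:112659129-112659276, minus strand: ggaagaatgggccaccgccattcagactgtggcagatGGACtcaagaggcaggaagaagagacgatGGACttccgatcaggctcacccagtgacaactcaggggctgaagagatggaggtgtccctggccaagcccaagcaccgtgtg
GGAC occurred 6 times in these sequences, in 4 of the 8. It was found in those of Tsc1 (1 match), Akt1 (2 matches), exon 6 of Rheb (1 match) and exon 1 of Rptor (2 matches). The coding parts of Rheb exons 7 and 8 and of Rptor exons 2 and 3 had none. No stretch of 25 nt from any of the 8 sequences occurred in an annotated transcript of another gene.

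In replicate 1, 8 of the 10 members had a peak, and 8 had one in replicate 2, against 22.1% and 26.8% of all 21951 protein-coding genes. Of the 10, 7 had a peak in both libraries (17.1% of protein-coding genes) and 4 had overlapping peaks (9.09% of protein-coding genes). The 4 with overlapping peaks were Tsc1, Rheb, Rptor and Akt1. Tsc2, Akt1s1 and Deptor had peaks in both libraries at different places. Tbc1d7 had a peak in replicate 1 only, Mtor in replicate 2 only and Mlst8 in neither list. A gene without a listed peak is not a gene without reads, since the lists hold no peak under 3 tags and give no value outside peaks. The files hold no expression value, so how far these counts follow the abundance of the mRNAs was not tested.

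**Figure D1:**
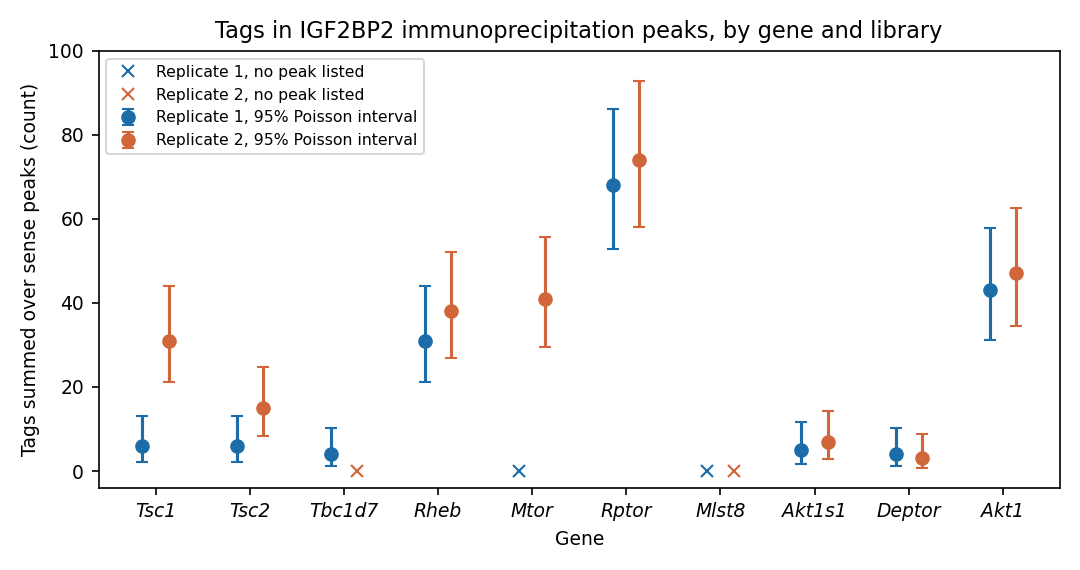
Tags summed over the sense peaks of each gene (y axis, count) for the 10 genes (x axis) in replicate 1 (blue) and replicate 2 (orange), with 95% exact Poisson intervals as bars and crosses where no peak was listed. Rptor had the most tags in both libraries (68 and 74), and the intervals of Tsc1 do not overlap between the libraries (6 and 31 tags). The Tsc1 sums cover 1 and 3 peaks, the tags are not scaled, and replicate 2 held 64.3% of the tags in sense peaks of all protein-coding genes.

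The Tsc1 gene lies on the plus strand at chr2:28641228-28691167, and its principal mRNA has 7674 nt in 23 exons. Among the genes of the TSC complex, Tsc1 had 6 tags in 1 peak in replicate 1 (interval 2.2 to 13.1) and 31 tags in 3 peaks in replicate 2 (21.1 to 44.0). Replicate 2 thus held 83.8% of the Tsc1 tags (68.0 to 93.8), against 64.3% of the tags in sense peaks of all protein-coding genes. The 2 overlapping peaks had 6 and 13 tags, or 68.4% in replicate 2 (43.4 to 87.4), an interval that includes the overall share. They differ in length, as the overlap of 199 nt is 65.9% of the replicate 2 peak, and tags are given for whole peaks. The shared position covers codons 1045 to 1111 of 1160, near the end of the hamartin coding sequence, and the replicate 2 peak spans codons 1022 to 1122. A replicate 2 peak of 10 tags (chr2:28685985-28686146) covers the whole of exon 22, from codon 934 to 988, just upstream. The remaining replicate 2 peak, of 8 tags (chr2:28678100-28678280), holds the whole of exon 16, which is 44 nt long, and intron on both sides of it. By summed tags, Tsc1 ranked above 24.4% of the protein-coding genes listed in replicate 1 and above 70.1% of those listed in replicate 2.

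Tsc2, which encodes the GTPase-activating subunit of the complex, had 6 tags in 1 peak in replicate 1 (2.2 to 13.1) and 15 tags in 2 peaks in replicate 2 (8.4 to 24.7). These intervals overlap, but none of the peaks did. The replicate 1 peak covers exon 19 of 40 exactly. The replicate 2 peaks, of 9 tags (chr17:24624959-24625341) and 6 tags (chr17:24599280-24599433), join intron to exon 9 and exon 33, with 81.0% and 51.0% of their length in intron by the authors' annotation. Since Tsc2 had no shared position, its strongest exonic peak is shown.
Tsc2, exon 19 of 40, chr17:24614352-24614502, minus strand: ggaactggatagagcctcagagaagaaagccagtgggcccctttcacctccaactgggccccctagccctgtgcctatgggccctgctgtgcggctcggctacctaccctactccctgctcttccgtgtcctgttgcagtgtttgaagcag
It covers codons 649 to 699 of 1742 and holds no GGAC. Tbc1d7, the third subunit, had a single peak of 4 tags (1.09 to 10.2), in replicate 1. It lies over the start codon, in exon 2 of 8, with equal parts of 5′ UTR and coding sequence (39.0% each) and the rest in intron.
Tbc1d7, coding part in exon 2 of 8, chr13:43169880-43169913, minus strand: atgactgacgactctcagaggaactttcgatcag
Only 3.49% of the genes with a peak in replicate 1 had fewer tags than Tbc1d7.

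Rheb, the GTPase that the TSC complex restrains, had 31 tags in 3 peaks in replicate 1 (21.1 to 44.0) and 38 tags in 4 peaks in replicate 2 (26.9 to 52.2). All 3 replicate 1 peaks were found again in replicate 2. Exon 6 had 8 and 9 tags, exon 7 had 12 and 14, and the first part of exon 8 had 11 and 7. These exons follow one another, so in the spliced mRNA the 3 shared positions form 1 unbroken stretch of 252 nt, from codon 111 to the last codon, 184, and into the 3′ UTR. The fourth replicate 2 peak, of 8 tags (chr5:24807748-24807794), lies in exon 5 and abuts the same stretch. The exon 6 and exon 7 peaks had the same first and last base in both libraries, those of the exons themselves. The whole exon 8 peak of each library held 1 GGAC, beyond the coding part that is shown.

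Mtor, which encodes the kinase of the complex, had no peak listed in replicate 1 and 6 peaks with 41 tags in replicate 2 (29.4 to 55.6). The strongest had 12 tags and the others 5 to 8. They lie at exons 21, 29, 30, 31, 36 and 44 of 58, between codons 1040 and 2067 of 2549, so none is near either end of the message. The peaks at exons 29, 30 and 31 abut in the spliced mRNA and form a stretch of 317 nt. The peak with the most tags has 54.0% of its length in the intron next to exon 30. The strongest mainly exonic peak, with 8 tags, is in exon 44.
Mtor, exon 44 of 58, chr4:148538728-148538894, plus strand: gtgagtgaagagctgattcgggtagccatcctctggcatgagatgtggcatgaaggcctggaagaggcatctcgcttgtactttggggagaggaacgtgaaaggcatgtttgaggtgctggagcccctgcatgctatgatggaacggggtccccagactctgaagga
This sequence covers codons 2012 to 2067 and has no GGAC. None of the 3 Mtor peaks that could be read from 1 exon, at exons 21, 29 and 44, held GGAC.

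Rptor, which encodes raptor, the scaffold that brings substrates to mTOR, had the most tags of the 10 genes. It had 68 tags in 6 peaks in replicate 1 (52.8 to 86.2) and 74 in 5 peaks in replicate 2 (58.1 to 92.9). Replicate 2 held 52.1% of the Rptor tags (43.6 to 60.6), an interval that lies below the 64.3% of all protein-coding genes. The sums run over the peaks listed in each library, only some of which overlap, so this share does not compare the same places alone. Of the protein-coding genes listed in each library, 89.6% and 86.0% had fewer tags than Rptor. The 3 shared positions lie in exons 1, 2 and 3, with 24 and 15, 14 and 20, and 10 and 17 tags. Joined in the spliced mRNA, they form 1 stretch of 328 nt, from codon 4 to codon 113 of 1335, at the start of the raptor coding sequence. The exon 2 and exon 3 peaks had identical ends in both libraries. At exon 1 the replicate 1 peak also reached into the 5′ UTR, which made up 53.0% of it, and 44.2% of it was overlapped. Both exon 1 peaks had their summit on the last base of the exon.

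The other Rptor peaks were found once each. In replicate 1, peaks of 8 and 6 tags cover exons 30 and 31 exactly, a stretch of 215 nt towards the end of the coding sequence, and a peak of 6 tags (chr11:119652737-119652881) lies in an intron. In replicate 2, a peak of 13 tags (chr11:119603081-119603410) covers the first 262 nt of the mRNA, in the 5′ UTR, and reaches upstream of it, and a peak of 9 tags (chr11:119796639-119796987) lies in another intron. Rptor spans 297 kb with introns included, and 6 of its 68 tags and 9 of its 74 tags were in peaks lying wholly in introns.

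The other mTORC1 genes had few tags. Akt1s1, which encodes the mTORC1 inhibitor PRAS40, had a single intronic peak of 5 tags in replicate 1 (1.62 to 11.7). In replicate 2 it had a single peak of 7 tags (2.81 to 14.4) at exon 2, with 55.0% in coding sequence.
Akt1s1, coding part in exon 2 of 5, chr7:44852811-44852959, plus strand: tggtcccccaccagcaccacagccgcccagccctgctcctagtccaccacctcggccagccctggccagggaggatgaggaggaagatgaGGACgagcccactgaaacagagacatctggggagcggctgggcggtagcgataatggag
The sequence holds 1 GGAC. Deptor, which encodes another inhibitor of mTOR, had a peak of 4 tags over its start codon in replicate 1 (1.09 to 10.2) and an intronic peak of 3 tags in replicate 2 (0.619 to 8.77), the lowest value a listed peak can have.
Deptor, coding part in exon 1 of 9, chr15:55112498-55112619, plus strand: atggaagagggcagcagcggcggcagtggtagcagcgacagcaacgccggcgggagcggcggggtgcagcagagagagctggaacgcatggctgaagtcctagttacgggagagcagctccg
An exon of Gm9920, on the opposite strand, overlaps this Deptor peak, the only member peak that touches an exon of another gene. How the strand of the reads was kept is not given in the sources used here. Mlst8, which encodes the small subunit that binds the kinase domain of mTOR, had no sense or antisense peak in either list.

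Akt1, the kinase upstream of the TSC complex, had 43 tags in 3 peaks in replicate 1 (31.1 to 57.9) and 47 tags in 3 peaks in replicate 2 (34.5 to 62.5). Replicate 2 held 52.2% of the Akt1 tags (41.4 to 62.9), an interval that lies just below 64.3%. The sums run over the peaks listed in each library, most of which do not overlap, so this share does not compare the same places. The shared position is exon 5, covered from its first to its last base in both libraries, with 14 and 20 tags and codons 96 to 145 of 480. The other peaks of the libraries do not overlap, though those at exons 11 and 12 abut in the spliced mRNA. In replicate 1 they lie at exon 10 with 62 nt of the next intron (16 tags) and over the whole of exon 11 (13 tags). In replicate 2 a peak of 9 tags (chr12:112656502-112656589) covers the whole of exon 12, and a peak of 18 tags (chr12:112654468-112654721) lies in exon 14, with 91.0% of it in the 3′ UTR. This was the only member peak in either library lying mostly in a 3′ UTR.

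**Figure D2:**
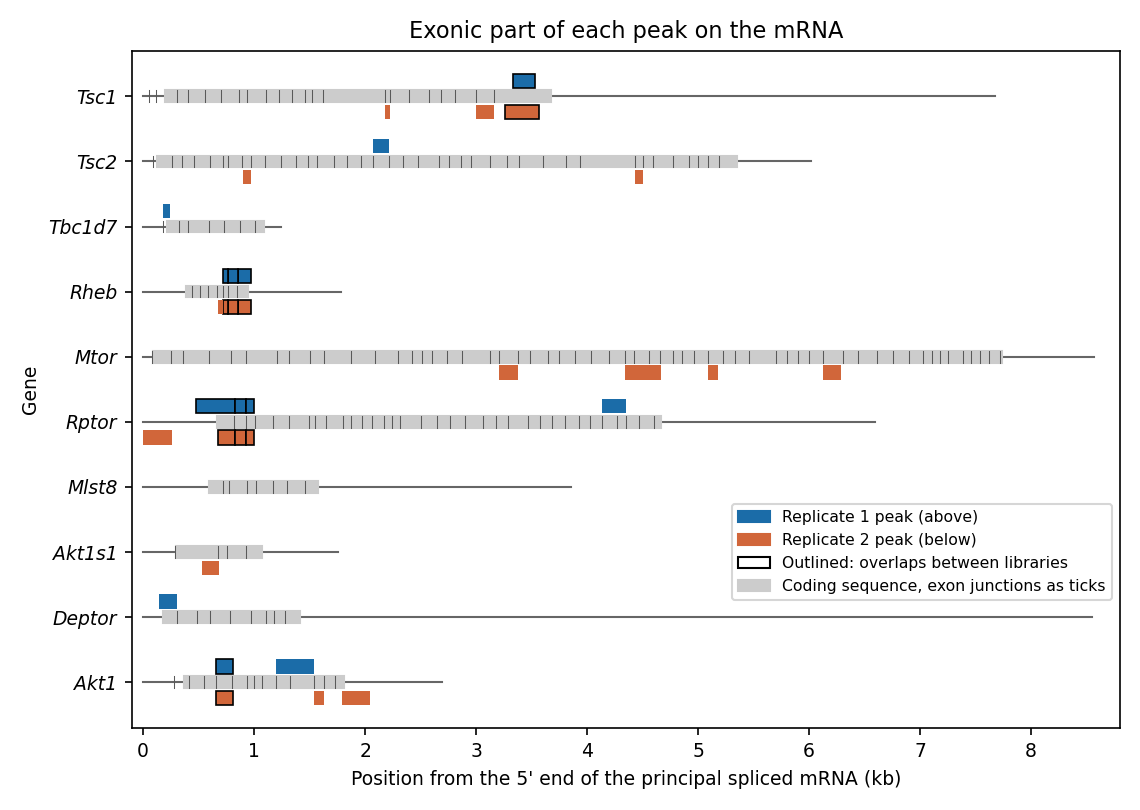
Exonic part of each peak along the principal spliced mRNA of each gene (x axis, kb from the 5′ end), with replicate 1 above and replicate 2 below the line, coding sequence in grey, exon junctions as ticks and overlapping peaks outlined. The shared positions of Rheb and of Rptor each form 1 unbroken block, of 252 and 328 nt, and no Mlst8 peak was listed.

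At the shared positions, the tags compared are those of the whole overlapping peaks. Replicate 2 had more tags at 6 of the 8, with 99 tags in replicate 1 and 115 in replicate 2 over all of them. Its share of the tags ran from 38.5% at exon 1 of Rptor to 68.4% at Tsc1, with a median of 56.3%, against a median of 58.3% over 5085 shared positions of all protein-coding genes. At 7 of the 8 positions the 95% interval of this share included 63.1%, the share of replicate 2 in all tags of the lists. The exception was exon 1 of Rptor (23.4 to 55.4), where the peaks were of unlike length and 44.2% of the replicate 1 peak was overlapped. Each summit lay within the partner peak at all 8 positions, and the summits were 0 to 63 nt apart.

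**Figure D3:**
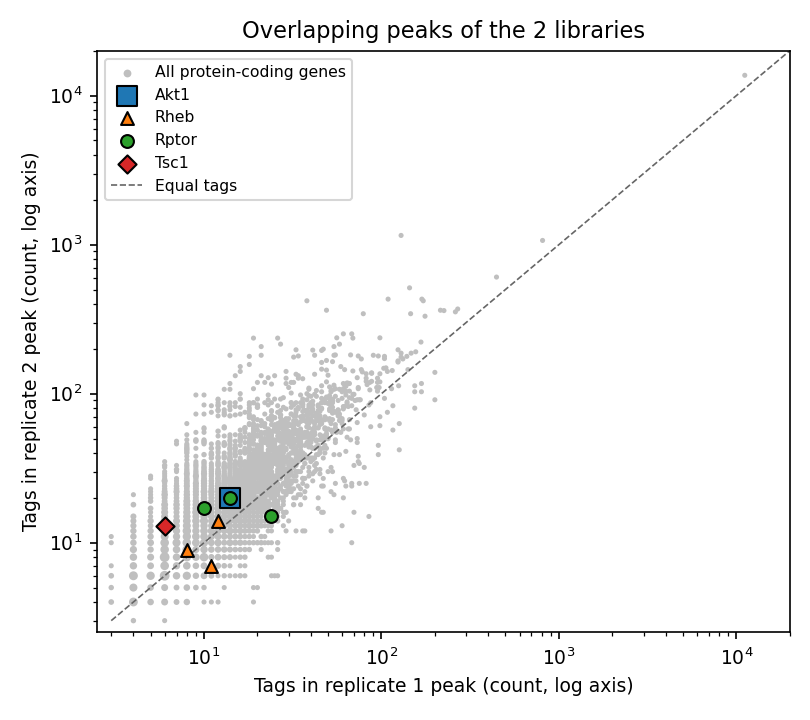
Tags in overlapping peaks, replicate 1 (x axis, log scale) against replicate 2 (y axis, log scale), for the 8 shared positions of Akt1, Rheb, Rptor and Tsc1 and, in grey, those of all protein-coding genes, with equal tags as the dashed line. The 8 positions have 6 to 24 and 7 to 20 tags, and one of Akt1 and one of Rptor lie at the same point (14 and 20).

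Levels can be compared between genes only per length. Per kb of merged exons over all annotated transcripts, Akt1 had 10.5 and 11.5 tags, Rptor 5.05 and 5.49, and Rheb 4.02 and 4.92. Mtor had 4.06 in replicate 2. The remaining genes with a peak had 0.451 to 1.63 in replicate 1 and 0.338 to 2.62 in replicate 2. The order at the top depends on the length used. Rheb has 7721 nt of merged exons but a principal mRNA of 1784 nt, and per kb of principal mRNA it came first with 17.4 and 21.3 tags, before Akt1 with 16.0 and 17.5 and Rptor with 10.3 and 11.2. Tsc1 had 0.507 and 2.62 tags per kb of merged exons and 0.782 and 4.04 per kb of mRNA. On both of these scales it had fewer than Akt1, Rptor, Rheb and, in replicate 2, Mtor. In replicate 1 Tsc1 was also below Tsc2 (0.624 and 0.997), Tbc1d7 (0.99 and 3.21) and Akt1s1 (1.63 and 2.85). Among the genes with a peak in that library, only Deptor had less. In replicate 2 Tsc1 was above Tsc2, Akt1s1 and Deptor. Per kb of gene span, introns included, the order in replicate 2 was Akt1 (2.23 tags), Akt1s1 (1.09), Rheb (0.955), Tsc1 (0.621), Tsc2 (0.407), Mtor (0.376), Rptor (0.249) and Deptor (0.0204). On that scale Tsc1 stood above Tsc2, Mtor and Rptor in replicate 2 only. In replicate 1 Tsc1 had 0.12 tags per kb of gene span, below Tsc2 with 0.163 and Rptor with 0.229, and Mtor had no listed peak. Peaks covered 14.2% and 16.8% of the Rheb mRNA, 18.3% and 18.2% of that of Akt1, and 2.59% and 6.62% of that of Tsc1.

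**Figure D4:**
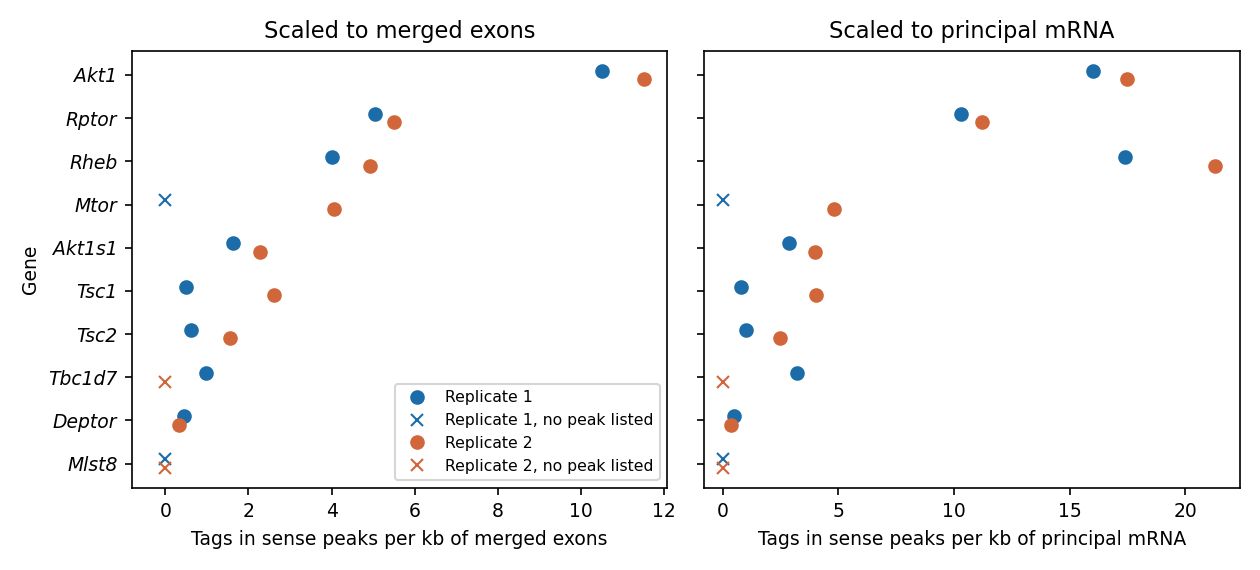
Tags in sense peaks per kb of merged exons (left x axis) and per kb of the principal mRNA (right x axis) for each gene (y axis) in replicate 1 (blue) and replicate 2 (orange), with crosses where no peak was listed. Akt1 leads on the left (10.5 and 11.5) and Rheb on the right (17.4 and 21.3).

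The peaks of these genes were of ordinary strength and lay mostly in coding sequence. The median was 8 tags in replicate 1 and 9 in replicate 2, as over all sense peaks of protein-coding genes (8 and 9), and the highest were 24 and 20. Per gene with a peak, the median was 6 tags over 8 members in replicate 1 and 34.5 over 8 in replicate 2, against 11 and 14 over all such genes. Coding sequence made up the largest part of 13 of the 17 peaks in replicate 1 (76.5%, interval 50.1 to 93.2) and of 17 of the 25 in replicate 2 (68.0%, 46.5 to 85.1), against 47.2% and 44.8% over all genes. Introns made up the largest part of 2 and 6 peaks (11.8% and 24.0%), against 36.9% and 40.0%. The 3′ UTR did so for 0 and 1 peaks (0% and 4.00%), against 12.5% and 11.8%. Peaks of 1 gene share their mRNA, so these intervals treat related peaks as separate and are too narrow.

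Many of the peaks coincided with exons, a feature looked at after the positions had been seen. Both ends fell on exon ends, to the base, in 8 of 17 peaks in replicate 1 (47.1%, interval 23.0 to 72.2) and 8 of 25 in replicate 2 (32.0%, 14.9 to 53.5), against 16.5% and 16.4% over all genes. Among peaks wholly in coding sequence it was 8 of 10 and 8 of 13, against 46.8% and 51.1%. The same first and last base in both libraries was found at 5 of the 8 shared positions, against 11.1% over all genes. Joining peaks that abut in the spliced mRNA turned the 8 shared positions into 4 stretches, 1 each for Tsc1, Rheb, Rptor and Akt1. Of the shared positions, 6 of 8 were in joined stretches (75.0%), against 45.4% over all genes. For the peaks of each library that touch the mRNA, the share was higher than over all genes in replicate 1 only. It was 10 of 15 in replicate 1 (66.7%, against 49.0%) and 10 of 23 in replicate 2 (43.5%, against 52.8%). Whether a read spanning a junction was counted in each exon it touched is not given in the sources used here, so tags of neighbouring exons may not be separate reads.

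Over whole peaks that could be read from 1 exon, 13 in replicate 1 and 16 in replicate 2, GGAC was present in 6 (46.2%, interval 19.2 to 74.9) and 8 (50%, 24.7 to 75.3). Over all genes it was present in 52.5% and 52.8% of peaks read in the same way, close to the shares in these genes. The peaks of these genes were shorter (median 145 against 196 nt and 154 against 216 nt), and per kb of readable peak GGAC occurred 6.45 and 6.03 times, against 4.77 and 4.66 over all genes, from 12 and 14 matches. The search was made on the strand of the gene alone. The longer m6A consensus DRACH, which is A, G or T, then A or G, then AC, then A, C or T, and overlaps GGAC, was present in 92.3% and 81.2%, against 91.3% and 91.5%. Per kb of readable peak DRACH went the other way from GGAC, with 15.6 and 17.2 matches, against 19.5 and 19.6 over all genes. The replicate 2 Tsc1 peaks at exons 22 and 23 held 2 GGAC each, and the replicate 1 peak held 1. A match is a sequence and not a measured methylation, and the files hold no m6A values.

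Of 40 other genes of the pathway, grouped by role, 20 had a peak in replicate 1, 20 in replicate 2, 15 in both and 7 at an overlapping position, against the same 22.1%, 26.8%, 17.1% and 9.09% of protein-coding genes. Substrates and outputs of mTORC1 had 7 of 14 in both libraries and 4 with overlapping peaks. The leading ones were Eif4g1, the scaffold of cap-dependent translation initiation, with 247 and 270 tags, and Larp1, a regulator of ribosomal protein mRNAs, with 162 and 232. Kinases that act upstream of tuberin had 5 of 10 in both and 1 overlapping, with 20 and 65 tags for Gsk3b, a kinase of the insulin and Wnt pathways. The stress inhibitors of mTORC1 had 1 of 4 in both, the sestrin gene Sesn1 (30 and 18 tags, overlapping). The Rag GTPases, which recruit mTORC1 to lysosomes, together with Rhebl1 had 1 of 5, Rragc (16 and 41 tags, overlapping). The subunits and assembly factors of mTORC2, the sister complex, had 1 of 7 in both, Tti1 (6 and 4 tags), and none overlapping. Rictor, its defining subunit, had 16 tags in replicate 1 and no listed peak in replicate 2, and was named after its values were seen.

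Of all protein-coding genes, 22.1% had a peak in replicate 1, 26.8% in replicate 2 and 17.1% in both. Of 10 macrophage markers, 7 had a peak in each library and 6 in both, with 2573 and 4418 tags in all, led by Mrc1 and Csf1r. Lyz2 and Cd14 had no peak in either list. Of 22 markers of T cells, B cells, neutrophils, stromal cells, dendritic cells and erythroid cells, 2 had a peak in replicate 1 and 1 in replicate 2, none in both, with 12 and 10 tags in all. They were Cd3e (3 tags), Col1a2 (9 tags) and Mpo (10 tags). These are tags in immunoprecipitation peaks and not expression values, so they do not measure which cells the cultures held. In bulk samples such as these, fewer cells of a type, less RNA per cell and less of the RNA pulled down cannot be told apart.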

How the data were processed

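RNA immunoprecipitated with IGF2BP2 was measured in 2 libraries of mouse BMDMs. The submitters' processing notes name bcl2fastq, TopHat2 and the GRCm38 build. Which program called the peaks, with what threshold and with or without the inputs, is not given in the sources used here. The authors deposited, per the file headers, 1 peak list for each library, with whole unnormalized tag counts (lowest value 3) and a maximum height, a coverage signal. The lists held 189393 and 324456 tags, which are not library depths. The deposited starts and summits count from 0: in replicate 1, 3954 starts matched an exon start after adding 1 nt and 27 as deposited, and no summit equalled a peak end. They were moved by 1 nt, so all coordinates here are 1-based, and lengths were recomputed.

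Genes, exons and sequences came from GENCODE release 21 for mouse, which held 99.7% and 99.8% of the gene identifiers. The principal transcript was that of APPRIS rank, then the longest coding sequence. A peak was assigned to the region covering most of it, ties going to the region listed first. Peaks were shared at an overlap of at least 1 nt on the same strand. Exact Poisson and Clopper-Pearson intervals (95%) were computed in scipy 1.17.1 with Python 3.11.15, numpy 2.4.6 and pandas 2.3.3. Without molecular identifiers, reads can be PCR copies. Overlap and sequence reading were tested on simulated peaks. No test was made on the gene list, and no p-value is given: the members, lists and alternatives were chosen with earlier results of these data known. All 10 members are named, with the 2 pathway genes per list with the most tags among those with a peak in both libraries (1 of these is not reported here), and sequences are given for shared positions or else the strongest exonic peak. Alternatives were a minimum of 6 tags, exonic peaks, antisense peaks, the stronger 50% of each list, equal list lengths, each replicate alone, other overlap rules, other region calls, maximum height, other length scales, another motif and windows of 50 nt around summits.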

Additional observations from a re-analysis of the deposited data

How the results depend on the processing

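The count of members with a peak in both libraries, 7 of 10, fell to 4 with exonic peaks only (Akt1, Rheb, Rptor and Tsc1, against 11.6% of protein-coding genes) and to 3 with the stronger 50% of each list (Akt1, Rheb and Rptor, against 8.87%). Both keep fewer peaks by construction. It was 5 with at least 6 tags (12.1% of protein-coding genes), 6 with equal numbers of the strongest peaks (13.5%) and 8 in either replicate alone. The 15 pathway genes outside the members became 9 with exonic peaks only and 7 with the stronger 50%, and 20 in either replicate alone, in alternatives added after seeing the data. The 8 shared positions were 7 when at least 50% of both peaks had to overlap and 8 under the other rules run, including starts as deposited. Summed member tags in replicate 2 went from 256 to 209 with exonic peaks only. The share of readable peaks with a motif went from 46.2% and 50% for GGAC to 92.3% and 81.2% for DRACH, a looser motif, whose share over all genes was 91.3% and 91.5%. Windows of 50 nt on either side of the summit held GGAC in 2 of 5 (40.0%) and 4 of 7 (57.1%), against 38.1% and 37.6% over all genes, and the coding share stayed between 66.7% and 85.7%. The order of the members by tags per kb changed with the length scale: in replicate 2 Rptor went from place 2 per kb of merged exons to place 7 per kb of gene span, and Akt1s1 from place 6 to place 2. No paired analysis was possible because the inputs, which carry the same replicate numbers as the immunoprecipitates, were not analysed here, and 1 group was left. Low tag counts limit what can be told apart: most member peaks had under 15 tags.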
